A study of Homo sapiens with 8 samples.

Results

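The miR-106b-25 and miR-106a-363 clusters are paralogs of the miR-17-92 cluster, and their mature miRNAs were described across 4 human cancer cell lines profiled by small RNA-seq. The 10 members were taken by name out of 2588 mature miRNA names in the table. Of these, 6 come from the chromosome 7 cluster: hsa-miR-106b-5p, hsa-miR-106b-3p, hsa-miR-93-5p, hsa-miR-93-3p, hsa-miR-25-3p and hsa-miR-25-5p. The other 4 come from the X chromosome: hsa-miR-106a-5p, hsa-miR-18b-5p, hsa-miR-20b-5p and hsa-miR-363-3p. The study sequenced parental, untreated cells to compare the miRNA repertoires of the lines. ES-2 cells derive from an ovarian cancer, MV-3 from a melanoma, Huh-7 from a hepatocellular carcinoma and A-549 from a lung adenocarcinoma. All were grown in DMEM with serum, and RNA was extracted 48 h after seeding, with 2 replicate libraries per line. Each line stands for 1 tumor, and differences between lines cannot be told apart from differences between the tissues they came from.

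The miR-17-92 cluster on chromosome 13 and its paralogs arose by duplication and encode miRNAs of a few shared seed families. The seed, bases 2 to 8 of a mature miRNA, pairs with target mRNAs, so that miRNAs with the same seed repress overlapping sets of transcripts. Members of the miR-17 seed family are known to repress the cell cycle inhibitor CDKN1A and the pro-apoptotic BCL2L11, and miR-17-92 is known as an oncogenic cluster. The chromosome 7 hairpins lie within MCM7, which encodes a subunit of the replicative helicase and is transcribed in proliferating cells. A hairpin releases a 5p and a 3p arm, of which usually one accumulates and guides repression.

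In GRCh38, the chromosome 7 hairpins are transcribed from the minus strand. MIR106B was annotated at chr7:100093993-100094074, MIR93 at chr7:100093768-100093847 and MIR25 at chr7:100093560-100093643. All 3 fall within intron 13 of the canonical MCM7 transcript, and MIR93 is exonic in 1 of 9 MCM7 transcripts. The X cluster, also on the minus strand, comprises MIR106A at chrX:134170198-134170278, MIR18B at chrX:134170041-134170111, MIR20B at chrX:134169809-134169877, MIR19B2, MIR92A2 and MIR363 at chrX:134169378-134169452. These 6 hairpins are exonic in 3 transcripts of a long non-coding RNA. MIR19B2 and MIR92A2 produce miR-19b-3p and miR-92a-3p, whose mature sequences are also encoded on chromosome 13, and which are therefore not members.

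**Figure D1:**
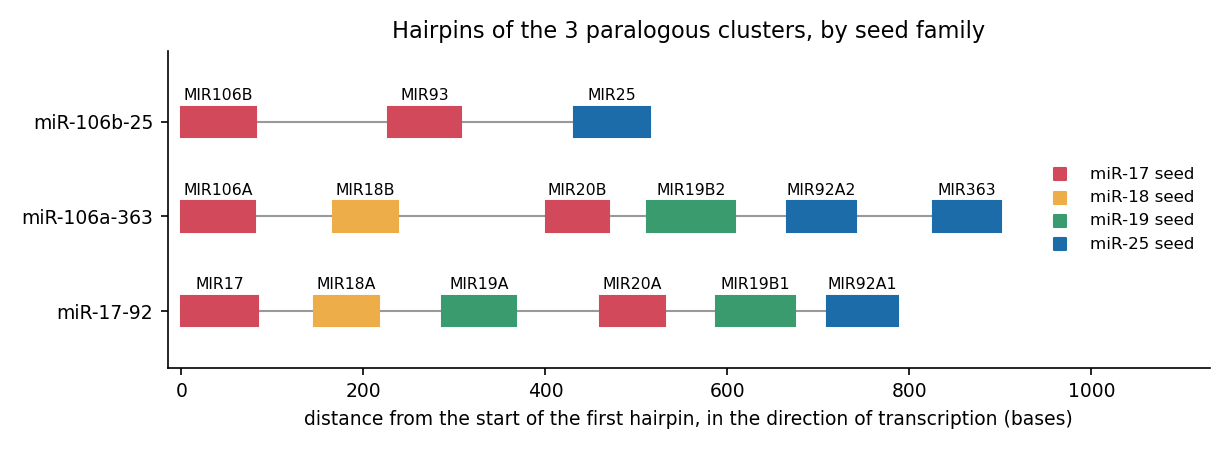
Hairpins of the miR-106b-25, miR-106a-363 and miR-17-92 clusters, placed by distance in bases from the start of the first hairpin in the direction of transcription and coloured by seed family. The clusters span 515, 901 and 787 bases, and the chromosome 7 cluster holds 3 hairpins and neither a miR-18 nor a miR-19 seed.

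Mature sequences are shown because seeds place the members into families and because few bases separate paralogs. They are RefSeq sequences on GRCh38.p14, found for all 10 members, written 5′ to 3′ with the seed in capitals. The first 4 members share the miR-17 seed, with their chromosome 13 counterparts miR-17-5p and miR-20a-5p placed after them:
hsa-miR-106b-5p: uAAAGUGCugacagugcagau
hsa-miR-93-5p: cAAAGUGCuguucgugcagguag
hsa-miR-106a-5p: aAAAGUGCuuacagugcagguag
hsa-miR-20b-5p: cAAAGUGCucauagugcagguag
hsa-miR-17-5p: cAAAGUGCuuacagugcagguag
hsa-miR-20a-5p: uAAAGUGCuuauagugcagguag
The next members carry the miR-25 seed, shared with miR-92a-3p, or the miR-18 seed, shared with miR-18a-5p:
hsa-miR-25-3p: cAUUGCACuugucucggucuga
hsa-miR-363-3p: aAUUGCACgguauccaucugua
hsa-miR-92a-3p: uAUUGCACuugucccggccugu
hsa-miR-18b-5p: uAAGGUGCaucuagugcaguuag
hsa-miR-18a-5p: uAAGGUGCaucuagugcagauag
The opposite arms of the chromosome 7 hairpins have seeds of their own:
hsa-miR-106b-3p: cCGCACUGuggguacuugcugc
hsa-miR-93-3p: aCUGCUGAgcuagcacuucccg
hsa-miR-25-5p: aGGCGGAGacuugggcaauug

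Counted from the 5′ end, miR-106a-5p differs from miR-17-5p only by C1A and miR-18b-5p from miR-18a-5p only by A20U. The chromosome 13 and X paralogs miR-20a-5p and miR-20b-5p differ by U1C and U10C. The X member miR-363-3p differs from miR-92a-3p at 12 positions, none of them in the seed. Of the chromosome 7 members, miR-93-5p differs from miR-17-5p by U10G, A11U, C12U and A13C, and miR-25-3p from miR-92a-3p by U1C, C14U, C18U and U22A. Over its 21 bases, miR-106b-5p differs from miR-17-5p by C1U, U10G and G20A. It also ends before the last bases of miR-17-5p, which has 23. How reads that fit several of these sequences were assigned is not given in the sources used here, so reads of the X members that lie 1 or 2 bases from a chromosome 13 miRNA are uncertain.

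The libraries held 1173902 to 2670030 reads on mature miRNAs. Values are normalised CPM, counts per 1000000 miRNA reads scaled by the trimmed mean of M values (TMM) as deposited, unless library CPM, without that scaling, is named. TMM factors ranged from 0.593 in A-549 to 1.70 in Huh-7, so the scales order some lines differently. Replicates of each line differed by more than counting error, with a chi-square per degree of freedom between 9.75 and 18.3. The hepatocyte miRNA miR-122-5p went with the label of Huh-7, with 81224 to 86217 normalised CPM there and at most 39.2 elsewhere. Epithelial miRNAs, the miR-200 family and miR-205-5p, summed to 2273 to 2339 in Huh-7 and 1605 to 1730 in A-549, and to 29.6 to 60.4 in ES-2 and MV-3. Most of this was miR-200b-3p, at 1847 and 1859 in Huh-7 and 1305 and 1403 in A-549. miR-200a-3p and miR-429 were also higher in these lines. The other listed miRNAs did not separate the lines in this way. miR-141-3p was highest in ES-2, at 4.86 and 5.65, and miR-205-5p was found in A-549 replicate 2 only. miR-200c-3p was at 45.8 and 43.1 in ES-2 and 56.0 and 104 in A-549. The melanocyte markers miR-211-5p and miR-204-5p together reached at most 1.48 in MV-3, with miR-211-5p at 0, and were thus nearly absent from the line labelled melanoma. Their sum was highest in Huh-7, at 30.1 to 40.0, nearly all of it miR-204-5p, and at most 4.91 in ES-2 and A-549. Of the 4 blood cell markers, only miR-142-3p was found at a level above 1.64, at 376 and 337 in the ES-2 libraries and 0 in the other lines. In ES-2, miR-223-3p was at 0, miR-150-5p at most at 1.39 and miR-451a at most at 0.694. The part of marker differences in the results was not tested.

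The chromosome 7 cluster was expressed in each line, while the 4 X members were barely detected. The X sums below leave out miR-92a-3p and miR-19b-3p, which the X cluster also encodes but whose reads cannot be assigned to it. Summed over its 6 members, the chromosome 7 cluster reached 15616 ± 815 normalised CPM in Huh-7 (SD, n = 2), 9395 ± 351 in ES-2, 9454 ± 339 in A-549, and 8722 ± 266 in MV-3. Huh-7 thus had the highest sum, whereas the ranges of ES-2 and A-549 overlapped. As a share of miRNA reads, the cluster accounted for 2.60% ± 0.0586 in Huh-7, 0.805% ± 0.0183 in ES-2, 0.568% ± 0.0103 in A-549, and 1.02% ± 0.0466 in MV-3 (SD, n = 2). On this scale no 2 lines overlapped, Huh-7 remained highest and A-549 was lowest. The 4 X members summed to 15.1 ± 1.01 normalised CPM in Huh-7, 20.1 ± 8.85 in ES-2, 9.01 ± 2.29 in A-549, and 10.3 ± 0.956 in MV-3, which corresponds to 12 to 56 reads per library. On the library CPM scale, Huh-7 rather than ES-2 had the highest X sum, 25.1 ± 0.934 against 17.3 ± 7.84. The chromosome 7 sum exceeded the X sum 347-fold to 1248-fold in single libraries. Comparisons between miRNAs are of reads per mature sequence of 21 to 23 bases, and how evenly the library kit recovered different sequences was not tested.

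**Figure D2:**
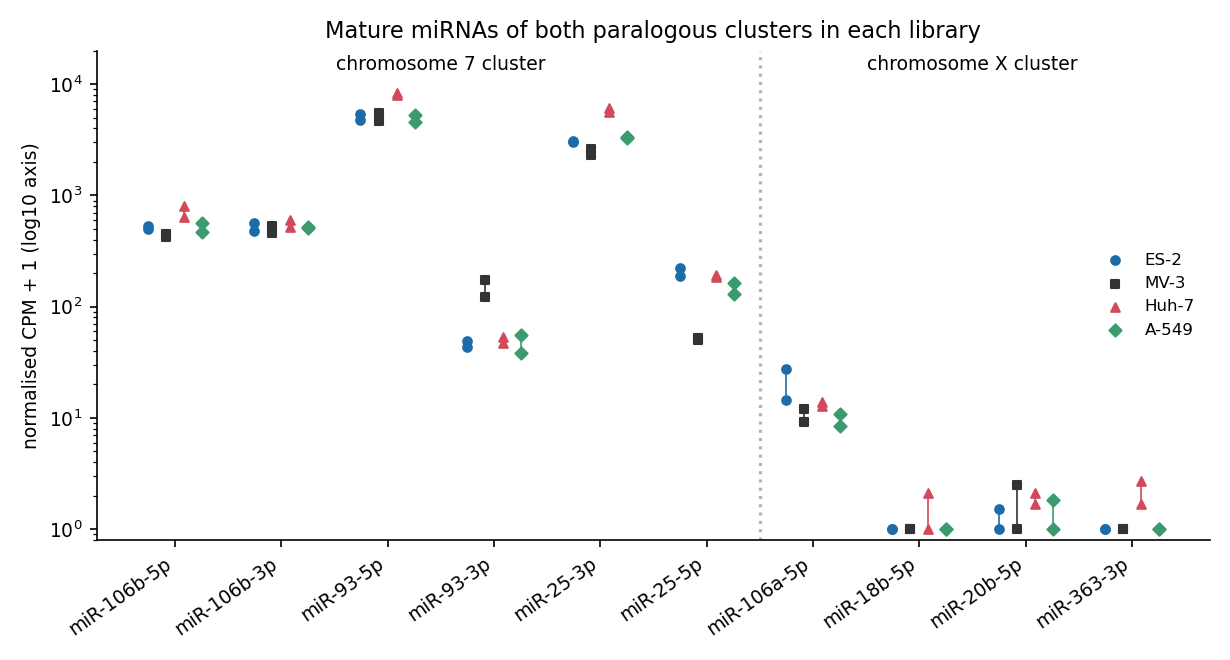
Normalised CPM + 1 on a log10 axis for each of the 10 members (x axis), with 1 point per library, 2 per line, joined by a line. Members of the chromosome 7 cluster lie between 36.9 and 8408 normalised CPM, miR-106a-5p lies between 7.39 and 26.4, and the remaining X members reach at most 1.69.

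Among the members of the miR-17 seed family, miR-93-5p was the most abundant in each line. It was found at 4759 and 5344 normalised CPM in the ES-2 libraries, 4715 and 5535 in MV-3, 8408 and 8009 in Huh-7, and 4581 and 5270 in A-549. Both Huh-7 libraries lay above all others, and the other 3 lines overlapped. By library CPM, miR-93-5p ranked 9 among all miRNAs in Huh-7 and 23, 25 and 29 in ES-2, MV-3 and A-549. In limma fits over all 528 miRNAs that passed the filter on low counts, with Benjamini-Hochberg adjustment and calls at an adjusted p below 0.01, it exceeded ES-2 in Huh-7 by a log2 fold change of 0.70 (SE 0.11, adjusted p = 0.0016). The difference was 0.68 against MV-3 (adjusted p = 0.0019), and A-549 was lower than Huh-7 by a log2 fold change of -0.74 (adjusted p = 0.0012). All 3 calls were lost when an absolute log2 fold change of at least 1 was required. Between ES-2, MV-3 and A-549, log2 fold changes were -0.06 to 0.02 with an SE of 0.11. With library size only, they were 0.46 for MV-3 minus ES-2, -0.55 for A-549 minus ES-2 (limma adjusted p = 0.0042) and -1.01 for A-549 minus MV-3 (adjusted p = 0.00027), so that A-549 was called lower than both. Each of the 3 calls was lost without either Huh-7 library, and also without ES-2 replicate 1, MV-3 replicate 1 and A-549 replicate 1 for the pairs with ES-2, MV-3 and A-549, with adjusted p values of up to 0.0257, 0.0286 and 0.0203 over all alternatives.

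The partner with the same seed, miR-106b-5p, was less abundant, with 8.10 to 13.1 reads of miR-93-5p for each read of miR-106b-5p. Its values were 795 and 644 normalised CPM in Huh-7, 531 and 502 in ES-2, 566 and 465 in A-549, and 449 and 424 in MV-3. The Huh-7 libraries were again highest, and ES-2 and A-549 overlapped. The only call was Huh-7 over MV-3, with a log2 fold change of 0.71 (SE 0.14, limma adjusted p = 0.0045). It was lost when an absolute log2 fold change of at least 1 was required. This call was lost in 5 of the 8 fits that left out 1 library (each ES-2 library, each MV-3 library and Huh-7 replicate 1), with no filter and in fits restricted to the lines compared (adjusted p = 0.012 in both), with an adjusted p of up to 0.0339 over all alternatives. With library size only, 4 of the 6 pairs of miR-106b-5p were called, including A-549 below MV-3 at a log2 fold change of -0.72 (limma adjusted p = 0.0042). Against ES-2, the log2 fold change of Huh-7 was 0.47 (limma adjusted p = 0.025).

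The member with the miR-25 seed, miR-25-3p, differed between lines whichever library was left out. It was found at 6150 and 5639 normalised CPM in Huh-7, 3059 and 3052 in ES-2, 3357 and 3259 in A-549, and 2615 and 2320 in MV-3. No 2 lines overlapped, with Huh-7 highest and MV-3 lowest in normalised CPM. By limma, Huh-7 exceeded ES-2 by a log2 fold change of 0.95 (SE 0.08, adjusted p = 6.8e-05) and MV-3 by 1.26 (adjusted p = 1.9e-05), and A-549 was lower than Huh-7 by -0.83 (adjusted p = 0.00012). Only the difference from MV-3 reached an absolute log2 fold change of 1. These 3 calls held in all 8 fits that left out 1 library. A-549 exceeded MV-3 by 0.43 (limma adjusted p = 0.0039), but this call was lost in 5 of those fits (each ES-2 library, MV-3 replicate 2 and each A-549 library), and without the TMM factor the call was the opposite, at a log2 fold change of -0.53 (adjusted p = 0.00064). On the library CPM scale A-549 rather than MV-3 was lowest, at 1988 ± 77.0 against 2869 ± 199 (SD, n = 2), and A-549 was also called lower than ES-2 at -0.40 (limma adjusted p = 0.0023). MV-3 minus ES-2 gave -0.31 (limma adjusted p = 0.021), not called.

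The opposite arms behaved differently. The 3p arm of miR-106b was similar in each line, at 594 and 517 normalised CPM in Huh-7, 564 and 482 in ES-2, 513 and 517 in A-549, and 535 and 460 in MV-3. The line means of miR-106b-3p differed at most 1.12-fold, the replicate ranges of the lines overlapped, and no pair of lines was called (log2 fold changes of -0.11 to 0.16 with an SE of 0.12; 0 calls by edgeR and DESeq2 as well, and 0 at an unadjusted p below 0.05 by limma). On the library CPM scale the line means of miR-106b-3p differed 2.99-fold, and 5 of the 6 pairs were called by limma.

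In contrast, miR-93-3p stood out in MV-3. It was found at 171 and 121 normalised CPM in MV-3, compared to 48.6 and 42.6 in ES-2, 52.1 and 46.1 in Huh-7, and 36.9 and 54.8 in A-549. Both MV-3 libraries lay above all others, which overlapped with each other. The log2 fold change of MV-3 minus ES-2 was 1.64 (SE 0.27, limma adjusted p = 0.0037), and Huh-7 and A-549 were lower than MV-3 by -1.53 (adjusted p = 0.0029) and -1.65 (adjusted p = 0.0025). These values rest on 60 to 231 reads per library. Leaving out 1 library ended the MV-3 minus ES-2 call in 5 of 8 fits, for each ES-2 library, each Huh-7 library and MV-3 replicate 1, with adjusted p values of up to 0.0289, while the log2 fold change stayed at 1.39 or above. The calls of Huh-7 and A-549 against MV-3 were likewise lost without MV-3 replicate 1 or either Huh-7 library, and the latter also without A-549 replicate 1. Without the TMM factor, Huh-7 minus MV-3 was -1.02 and no longer called (adjusted p = 0.0129).

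The reverse was observed for miR-25-5p, which was lowest in MV-3, at 48.9 and 51.0 normalised CPM. It was found at 187 and 221 in ES-2, 193 and 185 in Huh-7, and 161 and 128 in A-549. MV-3 lay below all other libraries, and ES-2 and Huh-7 overlapped. MV-3 was lower than ES-2 by a log2 fold change of -2.00 (SE 0.16, limma adjusted p = 0.00014), whereas Huh-7 and A-549 exceeded MV-3 by 1.90 (adjusted p = 8.6e-05) and 1.51 (adjusted p = 0.00031). These calls held in all 8 fits that left out 1 library, and that of A-549 was lost without the TMM factor (log2 fold change of 0.57, adjusted p = 0.0233). Hence, within 1 host intron, miR-93-3p was higher and miR-25-5p lower in MV-3 than in ES-2, while both arms of miR-106b and miR-93-5p were not called between these lines. The remaining arm, miR-25-3p, was also lower in MV-3, at -0.31, but not called (limma adjusted p = 0.021). DESeq2 called 3 members in this pair, where limma called 2.

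Because no scaling enters a ratio of reads within a library, the arms of each hairpin were compared directly. The hairpin of miR-25 is shown, a RefSeq sequence of 84 bases on GRCh38.p14 with both mature arms in capitals, since its arm ratio gave the smallest p of the 3 hairpins:
MIR25: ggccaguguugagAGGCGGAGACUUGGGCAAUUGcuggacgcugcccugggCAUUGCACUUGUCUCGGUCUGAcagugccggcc
For each read of miR-25-5p, there were 16.4 and 13.8 reads of miR-25-3p in ES-2, 53.5 and 45.5 in MV-3, 31.8 and 30.5 in Huh-7, and 20.8 and 25.4 in A-549. No 2 lines overlapped, and the line means on the log2 scale differed by up to 1.71, between MV-3 and ES-2. In an exact permutation test over all ways to split 8 libraries into 4 pairs, the p value was 0.00952, the smallest this design allows. For miR-93, the ratio of 5p to 3p reads was 161 and 174 in Huh-7, 97.9 and 125 in ES-2, 124 and 96.2 in A-549, and 27.6 and 45.8 in MV-3. MV-3 was lowest and Huh-7 highest, with a log2 difference of 2.24 (exact permutation p = 0.019). ES-2 and A-549 overlapped.

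The arms of miR-106b were nearly balanced, with 0.942 and 1.04 reads of the 5p arm for each 3p read in ES-2, 0.840 and 0.921 in MV-3, 1.34 and 1.25 in Huh-7, and 1.10 and 0.900 in A-549. Huh-7 was highest, but the log2 difference from MV-3 was 0.55 and the exact permutation p was 0.067. These were the 3 hairpins tested in this way. Across all 139 hairpins with both arms past the filter, limma on the log2 arm ratios called 13.7% at an adjusted p below 0.05. The adjusted p among the 4 lines was 0.0369 for miR-25, 0.04 for miR-93 and 0.424 for miR-106b. The difference between the highest and the lowest line was larger than that of miR-93 in 44 hairpins, than that of miR-25 in 64 and than that of miR-106b in 120, with a median of 1.57 on the log2 scale. In size, the changes in arm ratio of miR-93 and miR-25 were therefore above the median of the hairpins, and that of miR-106b was below it.

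**Figure D3:**
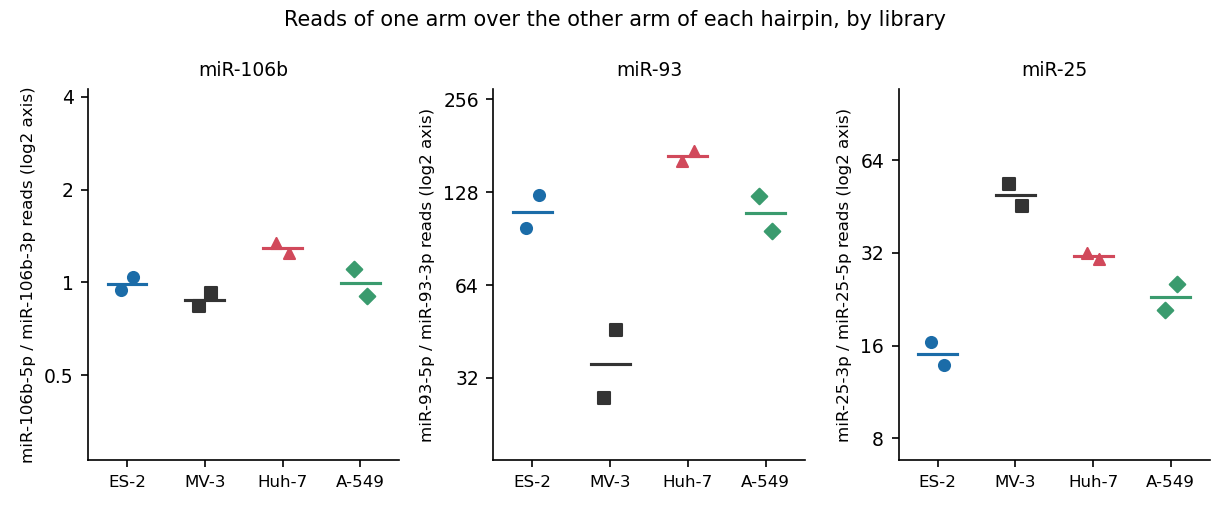
Reads of one arm over reads of the other arm (log2 axis) for miR-106b, miR-93 and miR-25 in each library; points are libraries and horizontal bars are line means on the log2 scale. The 3 axes span the same fold range. The MV-3 libraries are lowest for miR-93, at 27.6 and 45.8, and highest for miR-25, at 53.5 and 45.5.

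Across the lines, 4 of the 7 members that passed the filter were called among the 4 lines (miR-93-5p, miR-93-3p, miR-25-3p and miR-25-5p), where 68.2% of all miRNAs tested were called. MV-3 against ES-2 called 2 members (background 25.8%), and Huh-7 against ES-2 called 2 (background 49.2%). No member was called in A-549 against ES-2 by limma, edgeR or DESeq2, with 1 at an unadjusted p below 0.05 by each tool (background 41.3%). Huh-7 against MV-3 called 5, of which 4 were higher in Huh-7 (background 47%, with 26.9% higher). A-549 against MV-3 called 3, with 2 higher in A-549 (background 39.6%, with 24.1% higher), and A-549 against Huh-7 called 2, both lower in A-549 (background 52.3%, with 23.7% lower). These comparisons share libraries. The members' shares, at most 5 of 7, lay on both sides of the background. In the median, the 6 chromosome 7 members differed by a log2 fold change of 0.29 between Huh-7 and ES-2, where all miRNAs tested had a median of 0.34, and by 0.70 between Huh-7 and MV-3, where the median of all was 0.19.

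The directions depended in part on the scaling. Without the TMM factor, the median of all miRNAs tested moved from 0.34 to 1.07 on the log2 scale for Huh-7 minus ES-2, from 0.08 to -0.52 for A-549 minus MV-3 and from -0.09 to -1.38 for A-549 minus Huh-7. On this scale, all 6 chromosome 7 members and miR-106a-5p were called lower in A-549 than in Huh-7, beside 46.2% of all miRNAs tested. For miR-93-5p, the log2 fold change was then 1.66 in Huh-7 minus ES-2 and -2.21 in A-549 minus Huh-7, and for miR-25-3p it was 1.91 and -2.31, still beyond the median of all miRNAs. The higher level of miR-93-3p and the lower level of miR-25-5p in MV-3 than in ES-2 were called on both scales. miR-21-5p, the most abundant miRNA, reached 646036 library CPM in A-549 and 276264 to 330771 in the other lines, and its part in the scaling was not tested.

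**Figure D4:**
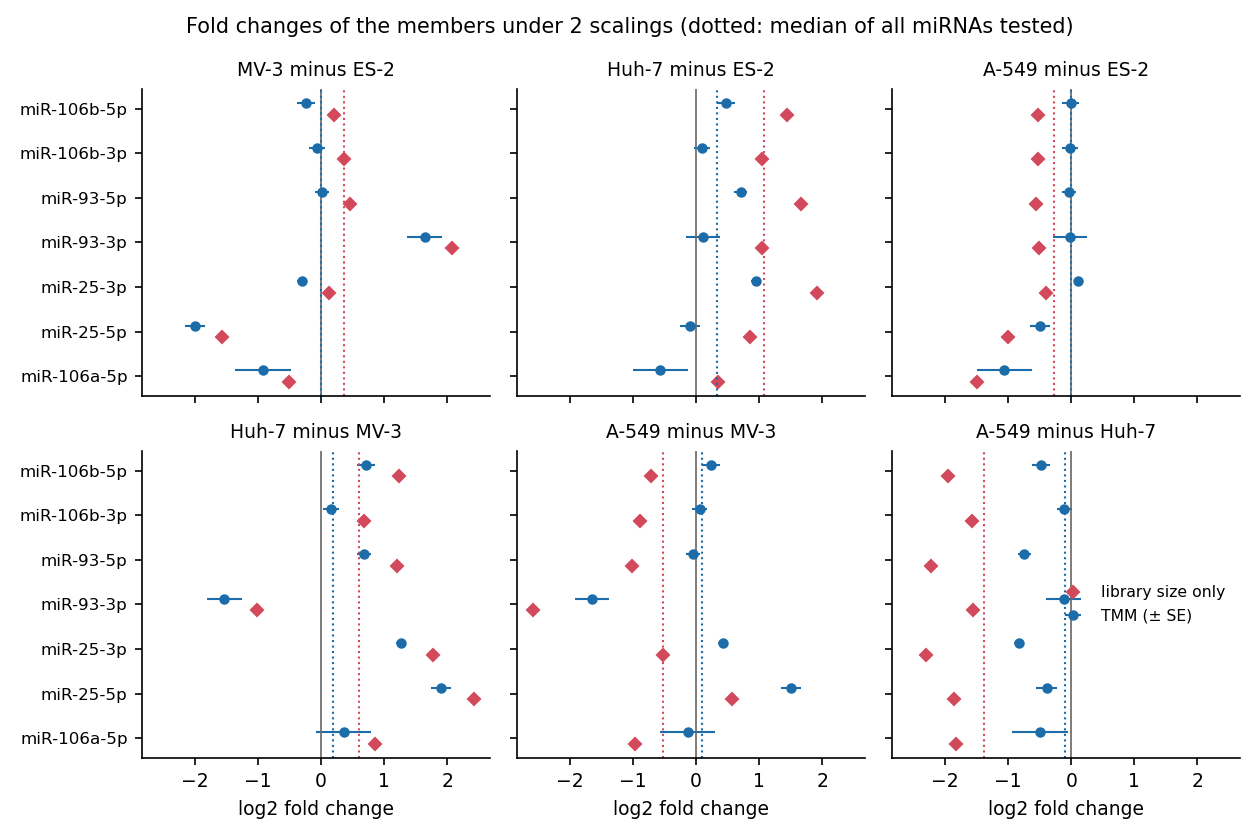
Log2 fold changes (x axis) of the 7 members past the filter in the 6 pairs of lines, with TMM scaling (circles, bars are SE) and with library size only (diamonds); dotted lines are medians of all 528 miRNAs tested. In A-549 minus Huh-7, the median of all miRNAs moves from -0.09 to -1.38, and miR-25-3p from -0.83 to -2.31.

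Within the X cluster, only miR-106a-5p passed the filter, and its counts were low. It had 42 and 38 reads in Huh-7, 38 and 26 in ES-2, 12 and 12 in A-549, and 11 and 20 in MV-3. This corresponds to 11.83 and 12.98 normalised CPM in Huh-7, 26.4 and 13.4 in ES-2, 7.39 and 9.81 in A-549, and 8.14 and 10.98 in MV-3. ES-2 replicate 1 was highest, whereas ES-2 replicate 2 lay close to Huh-7, and no pair was called by limma (log2 fold changes of -1.06 to 0.36 with an SE of 0.44). Reads of miR-106a-5p amounted to 1.24% to 3.95% of those of miR-17-5p, from which it differs by its first base alone. Whether some of them are reads of miR-17-5p was not tested.

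The remaining X members were close to absent. miR-20b-5p had 10 reads in all, with 1 to 4 reads in 5 libraries and 0 in 3. For miR-363-3p, 6 and 2 reads were counted for Huh-7 and 0 in the other 6 libraries. miR-18b-5p had 4 reads in Huh-7 replicate 1 and 0 in the other 7 libraries. A count of 0 allows up to 3 reads, which is 0.845 to 2.45 normalised CPM depending on the library, and covers counting error only. None of the 6 other arms of the X hairpins (miR-106a-3p, miR-18b-3p, miR-20b-3p, miR-363-5p, miR-92a-2-5p and miR-19b-2-5p) had a read in any library. In contrast, the entries placed on the X copies of miR-92a-3p and miR-19b-3p held 47.8% to 49.7% and 49.3% to 56.7% of the reads of these miRNAs. Their mature sequences are identical at both loci, so reads at these entries cannot be told apart from reads of the chromosome 13 copies.

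To place the clusters among their paralogs, the make-up of each seed family was calculated. In the miR-17 seed family, here the sum of miR-17-5p, miR-20a-5p, miR-20b-5p, miR-93-5p, miR-106a-5p and miR-106b-5p, the chromosome 7 members contributed 83.0% ± 0.046 of reads in Huh-7 (SD, n = 2), 65.9% ± 2.19 in ES-2, 87.9% ± 0.643 in A-549, and 80.0% ± 1.20 in MV-3. No 2 lines overlapped. The X members contributed 0.117% to 0.321% in single libraries. Within this family, miR-93-5p exceeded miR-17-5p by a ratio of 9.77 ± 0.198 in Huh-7, 4.51 ± 0.620 in ES-2, 18.7 ± 3.52 in A-549, and 8.05 ± 0.488 in MV-3. A-549 thus had the largest share of chromosome 7 members together with the lowest family total, 3716 ± 191 library CPM, compared to 7239 ± 165 in ES-2, 8087 ± 820 in MV-3 and 17932 ± 258 in Huh-7.

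The miR-25 seed family was composed differently. Here miR-92a-3p, encoded on chromosome 13 and X, held 78.7% to 92.1% of reads in the line means, and miR-25-3p held 11.7% ± 0.207 in Huh-7, 4.55% ± 0.126 in ES-2, 12.3% ± 0.280 in A-549, and 5.70% ± 0.595 in MV-3. The shares of miR-25-3p in Huh-7 and A-549 did not overlap with those of ES-2 and MV-3. miR-363-3p held 0.0014% and 0.0033% in the Huh-7 libraries and 0% elsewhere. The unlinked family member miR-92b-3p took 14.7% ± 0.847 in MV-3 and 0.852% ± 0.0237 in Huh-7. In the miR-18 seed family, miR-18b-5p reached 0.211% of reads in 1 Huh-7 library and the rest was miR-18a-5p.

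**Figure D5:**
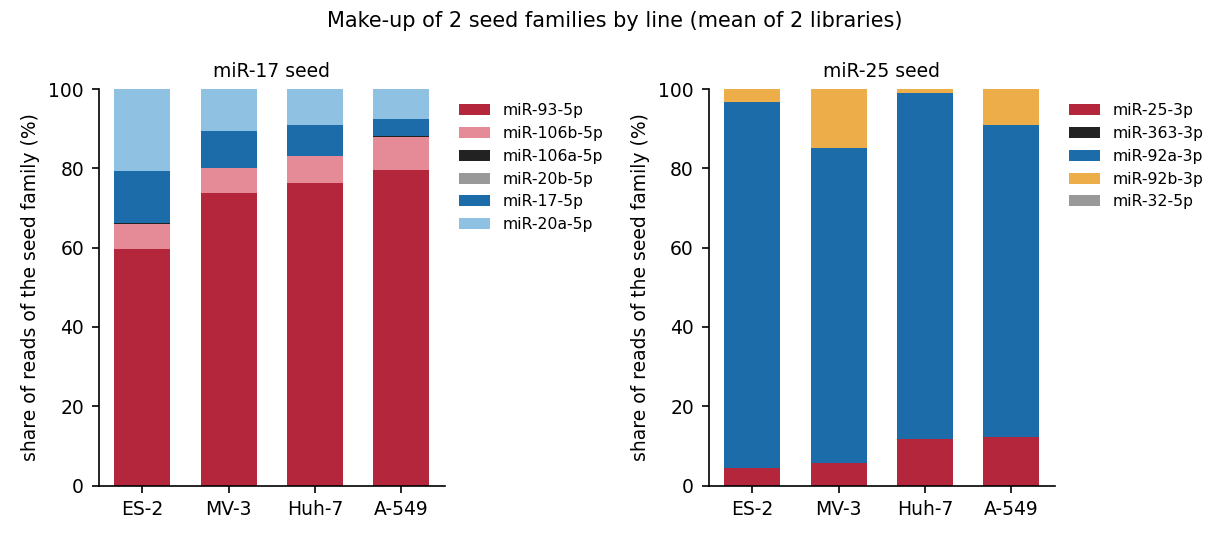
Share of reads (y axis, %, mean of 2 libraries) of each miRNA in the miR-17 and the miR-25 seed family in the 4 lines. The chromosome 7 members make up 65.9% of the miR-17 seed family in ES-2 and 87.9% in A-549, whereas miR-92a-3p holds at least 78.7% of the miR-25 seed family in each line.

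Mature miRNAs of the chromosome 13 cluster also differed between lines, and 10 of 12 passed the filter (miR-19a-5p and miR-19b-1-5p did not). The list includes miR-19b-3p and miR-92a-3p, whose reads cannot be told apart from those of their X copies. Of these 10, 8 were lower in A-549 when set against ES-2, where 17.6% of all miRNAs tested were called lower, at log2 fold changes of -1.28 to -2.14: miR-17-5p, miR-18a-5p, miR-18a-3p, miR-19a-3p, miR-19b-3p, miR-20a-5p, miR-92a-3p and miR-92a-1-5p. The exceptions were miR-17-3p (-2.21, limma adjusted p = 0.024) and miR-20a-3p (-1.90, limma adjusted p = 0.013). The median of the list was -1.89, whereas it was -0.02 for the 6 chromosome 7 members and 0.00 for all miRNAs tested. The level of miR-17-5p was 840 ± 11.8 normalised CPM in Huh-7, 1123 ± 62.7 in ES-2, 266 ± 24.0 in A-549, and 636 ± 33.5 in MV-3 (SD, n = 2). For miR-92a-3p, the levels were 43836 ± 1801 in Huh-7, 61868 ± 1751 in ES-2, 21221 ± 25.6 in A-549, and 34498 ± 1305 in MV-3. Thus both were highest in ES-2 and lowest in A-549 on this scale. On the library CPM scale A-549 remained lowest but Huh-7 was highest, with 1402 for miR-17-5p and 73119 for miR-92a-3p, compared to 963 and 53028 in ES-2. In MV-3 minus ES-2, 6 of the 10 were called lower (all miRNAs 14.2%), and 4 with library size only (all miRNAs 11%). In Huh-7 minus ES-2, 4 were called lower with TMM (all miRNAs 21.6%), whereas 4 were called higher and 0 lower with library size only (all miRNAs 43% and 16.5%). In A-549, 7 of 10 were lower than in MV-3 and 8 of 10 lower than in Huh-7, beside 15.5% and 23.7% of all miRNAs. With library size only, 9 were lower in each, beside 30.1% and 46.2% of all miRNAs. In Huh-7, 5 of 10 were higher than in MV-3 (all miRNAs 26.9%), and 6 with library size only (all miRNAs 35.4%). A difference between the clusters was not tested.

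The miRNAs with the most similar pattern were sought by Pearson correlation of log2 levels over the 8 libraries among 235 miRNAs outside the 3 clusters that reached 100 normalised CPM in a line. For the chromosome 7 sum these were miR-148a-3p (r = 0.987), miR-122-3p (r = 0.985) and miR-618 (r = 0.984). Their levels were 16850, 252 and 116 normalised CPM in Huh-7, and miR-122-3p and miR-618 were at 0 in the other lines, so the correlation rests on Huh-7 against the rest. For the X sum they were miR-671-5p (r = 0.823), miR-548k (r = 0.798) and miR-107 (r = 0.77), and this sum rests on 12 to 56 reads per library. Without the TMM factor, r was 0.898 for miR-148a-3p, 0.93 for miR-122-3p and 0.93 for miR-618. It was then 0.841 for miR-671-5p, 0.927 for miR-548k and 0.924 for miR-107, so the order changed. The search itself was not repeated on that scale. The points share libraries and scaling factors, and replicates of a line are not independent points of this pattern.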

How the data were processed

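Small RNA-seq libraries of 8 samples, 2 per cell line, were prepared from 50 ng of total RNA with a kit that ligates adapters. Per the study's methods and the submitters' processing notes, the authors removed adapters with cutadapt 1.14, aligned reads to GRCh38 (hg38) with Bowtie2 2.3.2, counted them on miRBase 21 with featureCounts 1.5.3 and normalised with edgeR 3.18.1. The table deposited by the authors holds a normalised signal, CPM scaled by TMM. Dividing a column by the worth of 1 read in it gave whole reads (100% of values at a tolerance of 0.001), from which reads and TMM factors were recovered. Entries of a name were summed (2813 entries, 2588 names). Reads are not molecules, and floors cover counting error only. The study calls the libraries of a line biological replicates. The limma p values set differences between lines against the spread between replicates, pooled over the lines and moderated across miRNAs.

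The 10 members, the lists of paralogs and markers and the tests were chosen with earlier results of these data known. log2(normalised CPM + 1) was fitted with limma 3.58.1 (R 4.3.3), with a mean-dependent prior variance, 1 term per line and all 8 libraries (4 residual degrees of freedom). filterByExpr left 528 miRNAs, including 7 members. A fold change on this scale understates the change of miRNAs with few reads. Arm ratios were compared by an exact permutation test of the F ratio. The limma fit over the arm ratios of all hairpins, with 0.5 reads added to each arm, was added after the data were seen. Alternatives were library size only, RLE size factors, at least 10 CPM in 2 libraries, no filter, edgeR 4.0.16, DESeq2 1.42.0, a pseudocount of 0.1, an adjusted p below 0.05, an absolute log2 fold change of at least 1, a replicate block, fits restricted to the lines compared, the highest entry of each name, and omitting 1 library at a time. Named miRNAs were all members, the paralog lists, the markers, miR-21-5p and the 3 most similar miRNAs per cluster; the other members of the 2 seed families entered their totals. With 200 of 528 simulated miRNAs changed between Huh-7 and ES-2, limma recovered 66% of 2-fold and 88% of 4-fold changes. Among miRNAs with a simulated mean of at least 100 CPM, it recovered 100% of both. The simulation used a fixed dispersion that was not estimated from these libraries, and took the scaling factors as known. The replicate spread and scaling error of these data were therefore not simulated. Hairpins were placed with GENCODE 44.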

Additional observations from a re-analysis of the deposited data

How the results depend on the processing

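The counts of members called were within 1.5 times of those reported under RLE size factors, no filter, at least 10 CPM in 2 libraries, edgeR, DESeq2, a pseudocount of 0.1, the highest entry of each name and fits restricted to the lines compared. No member has several entries, so taking the highest entry left the members' own values unchanged and could not test them. With library size only, 5 members were called in Huh-7 minus ES-2, 4 in A-549 minus ES-2, 5 in A-549 minus MV-3 and 7 in A-549 minus Huh-7. Of all 528 miRNAs tested, 314, 252, 241 and 355 were called in these pairs on that scale. Counts over all miRNAs were not drawn up for the other alternatives, so their counts of members have no background. An adjusted p below 0.05 gave 1 in A-549 minus ES-2. Requiring an absolute log2 fold change of at least 1 left 0 in Huh-7 minus ES-2, 3 in Huh-7 minus MV-3 and 0 in A-549 minus Huh-7. Leaving out 1 library gave 2 to 4 members among the 4 lines, 1 to 2 in MV-3 minus ES-2, 1 to 2 in Huh-7 minus ES-2, 0 in A-549 minus ES-2, 2 to 5 in Huh-7 minus MV-3, 1 to 2 in A-549 minus MV-3 and 1 to 2 in A-549 minus Huh-7. Without 1 library, the log2 range of line means was 0.49 to 0.62 for the arm ratio of miR-106b, 1.87 to 2.60 for miR-93 and 1.59 to 1.84 for miR-25.

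Of 102 log2 fold changes of members and chromosome 13 miRNAs, 10 that were called on at least one scale changed sign with library size only, where the median of all miRNAs also moved. Values called in neither fit changed sign in 6 cases with library size only, 10 with RLE size factors, 10 with DESeq2, 1 with edgeR and 25 of 816 when 1 library was left out. The 10 called reversals were as follows. In Huh-7 minus ES-2, the log2 fold changes were then 0.85 for miR-25-5p, 0.54 for miR-17-5p, 0.87 for miR-18a-5p, 0.12 for miR-20a-5p and 0.46 for miR-92a-3p, each below the median of all miRNAs of 1.07. In A-549 minus ES-2, miR-25-3p was at -0.40 (median of all -0.28). In A-549 minus MV-3, miR-106b-5p was at -0.72, miR-106b-3p at -0.90, miR-25-3p at -0.53 and miR-92a-1-5p at -0.66 (median of all -0.52).

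Of 14 calls of single members between 2 lines, 3 held under every alternative: miR-25-3p in Huh-7 minus MV-3, and miR-25-5p in MV-3 minus ES-2 and in Huh-7 minus MV-3. Deviations of same-numbered replicates from their line means correlated at -0.05 to 0.232 between lines. These correlations had no reference value, so they cannot decide whether libraries of the same number share a batch. With a replicate block, 5 members were called among the 4 lines and 3 each in Huh-7 minus ES-2 and A-549 minus Huh-7. The X members, with 56 reads per library at most, limit what could be compared there.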
